A study of Mus musculus with 12 samples.

Results

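Genes of brown fat thermogenesis were followed in aortic tissue of atherosclerotic mice as a fixed list of 8 of the 32245 gene symbols in the matrices: Ucp1, Cidea, Cox7a1, Cox8b, Elovl3, Ppargc1a, Dio2 and Prdm16. They were read over whole libraries and in adipocyte-marker cells, defined as cells with a transcript of at least 4 of the 8 adipocyte genes Adipoq, Cidec, Plin1, Car3, Retn, Mrap, Adig and Pck1. Of 34265 cells in the 4 gene expression libraries, 1863 met that rule. Each group had 1 library, made from 6 pooled aortas, so no difference between groups had a replicate check and none was tested. All mice were male, labelled ApoE-/- on a C57BL/6J background, and 8 weeks old at the start of 24 weeks of diet. The Healthy group ate normal chow without drug, and the AS group ate a high-fat diet containing 1% cholesterol and 10% fat. The MTZ-treated group had that diet and, once atherosclerosis was established, methazolamide, a carbonic anhydrase inhibitor, at 25 mg/kg every other day for 12 weeks. The MTZ-preventive group received the same dose beside the diet for all 24 weeks. The labels spell the drug methoxazolamide.

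Brown adipocytes burn fuel to make heat. Uncoupling protein 1 lets protons leak back across the inner mitochondrial membrane, noradrenaline from sympathetic nerves switches the program on through beta-adrenergic receptors and cAMP, and fatty acids feed it. Fat around the aorta can be brown or white, and the members are among the genes by which these are told apart.

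Promoter sequences are shown for 4 members whose transcripts lay to different degrees in adipocyte-marker cells. In the libraries labelled Healthy, AS, MTZ-treated and MTZ-preventive their share of the Cox8b UMIs was 71.9% (53.3 to 86.3), 71.6% (64.6 to 77.9), 69.2% (54.9 to 81.3) and 83.1% (77.6 to 87.8), with exact 95% binomial intervals in parentheses. For Ucp1 it was 0% (0 to 33.6), 48.4% (30.2 to 66.9), 0% (0 to 28.5) and 77.4% (63.8 to 87.7). It was 0% (0 to 2.76), 33.3% (7.49 to 70.1), 0% (0 to 9.74) and 10.9% (6.26 to 17.4) for Dio2 and 0.293% (0.00742 to 1.62), 12.5% (4.19 to 26.8), 0.498% (0.0126 to 2.74) and 13.2% (10.1 to 16.8) for Prdm16. The sequences are the 250 bases before the start that the RefSeq promoter table gives on GRCm38.p6, 5′ to 3′ on the strand of the gene. Capitals mark the nuclear receptor core AGGTCA and the cAMP response element core TGACG, searched on both strands, hence also as TGACCT and CGTCA. The windows are chr8:83290098-83290347 (plus strand) for Ucp1, chr12:90739039-90739288 (minus strand) for Dio2, chr7:140900447-140900696 (minus strand) for Cox8b and chr4:154636874-154637123 (minus strand) for Prdm16.
Ucp1: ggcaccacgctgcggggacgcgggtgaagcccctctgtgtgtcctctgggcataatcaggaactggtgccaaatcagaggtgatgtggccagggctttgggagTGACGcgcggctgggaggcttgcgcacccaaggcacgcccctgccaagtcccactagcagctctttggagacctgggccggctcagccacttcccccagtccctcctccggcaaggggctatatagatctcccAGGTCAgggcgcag
Dio2: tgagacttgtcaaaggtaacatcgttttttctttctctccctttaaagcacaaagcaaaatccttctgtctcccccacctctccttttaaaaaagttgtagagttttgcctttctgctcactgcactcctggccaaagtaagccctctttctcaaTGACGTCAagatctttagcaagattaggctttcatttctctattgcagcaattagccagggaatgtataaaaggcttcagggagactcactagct
Cox8b: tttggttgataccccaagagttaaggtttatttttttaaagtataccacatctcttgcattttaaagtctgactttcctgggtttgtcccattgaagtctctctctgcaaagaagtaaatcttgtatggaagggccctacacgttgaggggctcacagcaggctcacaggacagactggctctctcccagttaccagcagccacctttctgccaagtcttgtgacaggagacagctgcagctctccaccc
Prdm16: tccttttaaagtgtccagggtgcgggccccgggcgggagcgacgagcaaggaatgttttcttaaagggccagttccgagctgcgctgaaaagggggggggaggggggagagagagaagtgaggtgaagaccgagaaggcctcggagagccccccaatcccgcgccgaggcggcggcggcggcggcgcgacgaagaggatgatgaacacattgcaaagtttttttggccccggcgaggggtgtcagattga

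The Ucp1 window held AGGTCA beginning 14 bases before the start and TGACG beginning 147 bases before it. The Dio2 window held the full element TGACGTCA beginning 95 bases before the start, which reads the same on both strands and so contains TGACG and CGTCA in overlap. Neither core was found in the Cox8b, Prdm16 or Cox7a1 windows, and Ppargc1a held CGTCA 49 bases before the start of that table, in the window chr5:51567726-51567975 (minus strand). Of 32851 promoter windows of this length, 14.0% held AGGTCA, 17.8% held TGACG and 1.55% held TGACGTCA on either strand. The G and C content was 64.8% for Ucp1, 41.6% for Dio2, 47.2% for Cox8b and 62.4% for Prdm16, against a median of 52.4% over all windows. Windows were at hand for 6 of the 8 members, and the matches describe letters only. The annotated genes, all protein coding, lie at chr8:83290348-83298456 for Ucp1, chr7:30184171-30186030 for Cox7a1, chr7:140898942-140900446 for Cox8b, chr19:46131897-46135694 for Elovl3, chr5:51454249-52115853 for Ppargc1a, chr12:90724552-90739038 for Dio2 and chr4:154316122-154637360 for Prdm16. The windows of Prdm16 and Ppargc1a lie inside these spans, so the starts in the promoter table are not the outermost ones annotated for these genes, and the other windows directly precede their genes.

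The libraries held 11121, 2161, 6796 and 14187 cells and 28779129, 3734493, 14585870 and 32221140 UMIs (unique molecular identifiers, each standing for 1 captured transcript) for Healthy, AS, MTZ-treated and MTZ-preventive, an order kept below. Levels are UMIs per 1000000 UMIs of the cells named (CPM). Apoe stood at 701 CPM in the library labelled Healthy and at 11.2, 12.8 and 8.81 CPM in the others, which goes against the ApoE-/- label of the first, so in comparisons with it genotype and diet cannot be told apart. Pairs of libraries shared 24 to 234 cell barcodes. Intervals are exact 95% intervals and cover counting error only, and 3 UMIs, taken as the floor, are 0.104, 0.803, 0.206 and 0.0931 CPM in a whole library.

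Adipocyte-marker cells were 56 of 11121 cells in the library labelled Healthy (0.504%, 0.381 to 0.653, exact binomial interval), 391 of 2161 in AS (18.1%, 16.5 to 19.8), 68 of 6796 in MTZ-treated (1.0%, 0.778 to 1.27) and 1348 of 14187 in MTZ-preventive (9.50%, 9.02 to 10.00). The intervals did not overlap. With every cell thinned to 1000 UMIs the shares were 0.342, 14.1, 0.633 and 5.15%. In these cells Adipoq, which encodes the hormone adiponectin, stood at 1347, 1197, 1136 and 1065 CPM, and all 8 markers of the rule were detected in each library. Other markers were less alike across libraries. Car3 stood at 6978, 3329, 6699 and 2400 CPM, Pck1 at 1323, 271, 331 and 349 CPM, and Retn at 1154, 2006, 1766 and 1134 CPM. The cells were picked by these markers, so these values follow from the rule and are no independent sign of cell identity. All 16 adipocyte genes of a list outside the rule were detected too, among them Cfd, the protease adipsin, at 31414 to 43097 CPM, Fabp4, a fatty acid carrier, at 8589.7 to 11075 CPM, and Pnpla2, a triglyceride lipase, at 581 to 2187 CPM. Of that list 14 of 16 in AS and 15 of 16 in MTZ-preventive were at least 2-fold above the other cells of the library. Over all genes with at least 20 UMIs in the library, 7.22% of 10180 in AS and 7.05% of 15040 in MTZ-preventive were.

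Markers of other cells were also present in them. At least 3 of 8 fibroblast markers were found in 89.3, 16.9, 76.5 and 31.7% of adipocyte-marker cells, with summed levels of 11956, 982, 6811 and 1109.6 CPM and all 8 detected in each library. In the other cells they summed to 7899, 6075, 10107 and 5680 CPM. Adipocyte-marker cells thus stood above the other cells in the library labelled Healthy and below them elsewhere, so the rule did not pick like cells in each library. At least 3 of 8 smooth muscle markers were found in 3.57, 28.9, 42.6 and 34.5%, with summed levels of 331, 2275, 5654 and 1818 CPM. The 8 neutrophil markers summed to 16.1, 3419, 0 and 63.5 CPM, none of them detected in MTZ-treated. Conversely, at least 1 adipocyte marker was found in 47.3% of 165 neutrophil-marker cells of AS, and in 0.498% and 11.2% of B-marker cells of the library labelled Healthy and of MTZ-preventive. The part of these in the levels below was not tested. No cell met the rule for skeletal or cardiac muscle, tissues that also use Cox7a1 and Cox8b. In adipocyte-marker cells the skeletal muscle markers still summed to 0, 12.8, 37.3 and 7.20 CPM, and the cardiac ones to 16.1, 3.85, 10.7 and 11.9 CPM. The part of muscle transcripts in Cox7a1 and Cox8b was not tested.

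Ucp1, the uncoupling protein itself, was rare everywhere. Over whole libraries it gave 9, 31, 11 and 53 UMIs, or 0.313, 8.30, 0.754 and 1.64 CPM. AS was the highest, and its interval (5.64 to 11.8) lay above those of the other libraries. AS was 26.5 times the library labelled Healthy (12.3 to 63.4), and was 11 (5.38 to 24.3) times MTZ-treated and 5.05 (3.13 to 8.01) times MTZ-preventive. All comparisons share the AS library. In a sum over a library, more adipocyte-marker cells and more transcript per cell cannot be told apart.

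In adipocyte-marker cells Ucp1 gave 0, 15, 0 and 41 UMIs. The UMIs of AS made 19.2 CPM (10.8 to 31.7) and came from 7 cells, 9 of them from 1 cell. Those of MTZ-preventive made 9.23 CPM (6.62 to 12.5) and came from 14 cells, 14 of them from 1 cell. For a count of 0 the exact upper limit was 29.8 CPM in the library labelled Healthy and 19.7 CPM in MTZ-treated, and the floor of 3 UMIs was 24.2 and 16.0 CPM. The level of MTZ-preventive lay under both, that of AS under the exact limits, and no ratio was formed with these libraries. MTZ-preventive stood at 0.480 (0.260 to 0.933) of AS, and at 0.238 in cells with fewer than 3 markers of every other class. With the Ucp1 UMIs of the cell richest in Ucp1 left out of each library, an alternative chosen after the data were seen, it stood at 0.790. Here and below, leaving out the top cell took away its UMIs of the gene only, and its other UMIs stayed in the totals. The Ucp1 ratio was also under 2-fold with at least 5 markers (0.577) and with mitochondrial, hemoglobin and ribosomal protein genes left out of the totals (0.501). A Ucp1 UMI was present in 1.79% (0.723 to 3.65) of adipocyte-marker cells in AS and 1.04% (0.569 to 1.74) in MTZ-preventive, and in 1.28% and 0.371% after thinning. Among the other cells of AS itself 0.791% (0.433 to 1.32) held one, a share whose interval overlapped that of its adipocyte-marker cells. For background in B cells, 2 of 2812 B-marker cells of the library labelled Healthy and 0 of 971 of MTZ-preventive held one. AS had 13 B-marker cells, too few for such a background.

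Adipocyte-marker cells held 48.4% (30.2 to 66.9) of the Ucp1 UMIs of AS and 77.4% (63.8 to 87.7) of those of MTZ-preventive, but none of the 9 and 11 of the library labelled Healthy and MTZ-treated. In the remaining cells Ucp1 stood at 0.314, 5.42, 0.764 and 0.432 CPM, with AS at 17.2 (7.17 to 44.3) times the library labelled Healthy. The markers of the rule were also higher in those remaining cells of AS, to unlike degrees. Their ratios to the library labelled Healthy ran from 4.45 (2.85 to 6.80) for Plin1 to 302 (175 to 572) for Retn. Adipoq was at 36.8 (25.1 to 55.4) times and Cidec, a lipid droplet protein, at 236 (145 to 408) times. Car3, at 9.11 (7.83 to 10.6) times, and Plin1 had lower ratios than Ucp1, and the other markers higher ones. The part of adipocyte transcripts in the Ucp1 ratio was not tested.

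**Figure D1:**
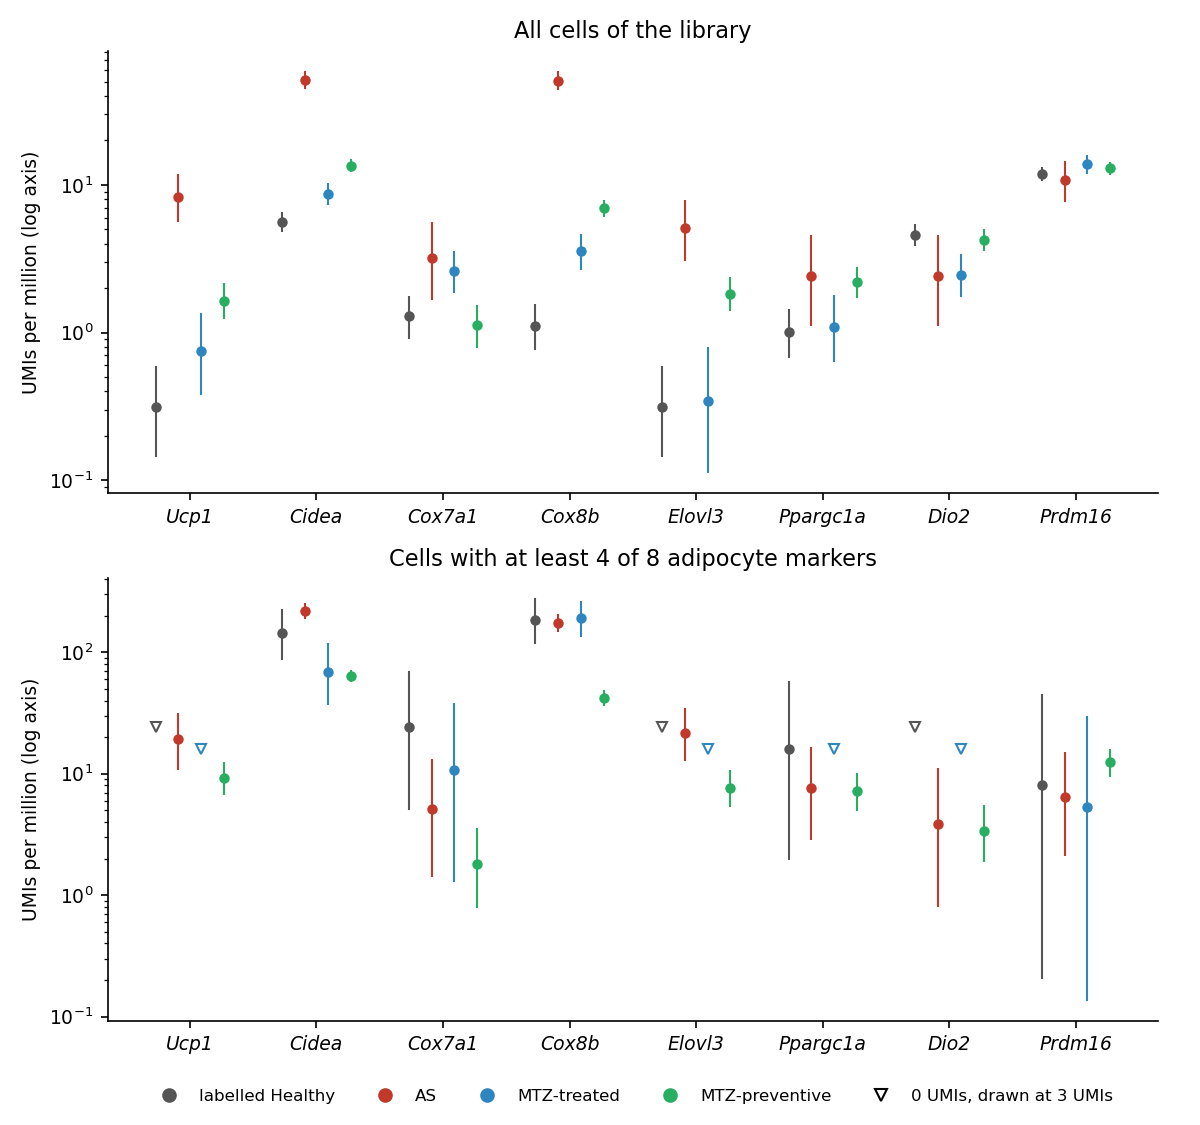
UMIs per 1000000 (log axis) of the 8 members in each library over all cells (upper panel) and in adipocyte-marker cells (lower panel), as points with exact 95% Poisson intervals of counting error; counts of 0 are open triangles at the level of 3 UMIs. Over whole libraries AS stands highest for Ucp1, Cidea, Cox8b and Elovl3, and also for Cox7a1 and Ppargc1a, where its interval overlaps those of other libraries. In adipocyte-marker cells Cox8b is at 186, 174 and 192 CPM in the first 3 libraries and at 42.1 CPM in MTZ-preventive.

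Cidea, a lipid droplet protein abundant in brown fat, gave 161, 192, 127 and 436 UMIs over whole libraries, or 5.59, 51.4, 8.71 and 13.5 CPM. AS was again the highest, at 9.19 (7.41 to 11.4) times the library labelled Healthy, 5.90 (4.69 to 7.45) times MTZ-treated and 3.80 (3.19 to 4.51) times MTZ-preventive. In adipocyte-marker cells Cidea stood at 145, 219, 69.3 and 63.7 CPM. One AS cell supplied 97 of the 171 UMIs there, and without the top cell of each library the levels were 56.5, 94.9, 16.0 and 59.7 CPM. The ratio of MTZ-preventive to AS in these cells moved from 0.291 (0.239 to 0.353) to 0.629 by that step, and over whole libraries to 0.510, neither past 2-fold. With the mean of cell CPM the ratio in adipocyte-marker cells was 0.516, also under 2-fold. A Cidea UMI was found in 8.93% (2.96 to 19.6), 13.3% (10.1 to 17.1), 5.88% (1.63 to 14.4) and 11.8% (10.1 to 13.6) of adipocyte-marker cells. These shares overlapped. After thinning they were 8.93, 9.46, 2.94 and 5.42%. No B-marker cell held one in the 3 libraries with at least 20 such cells, but cells with a B cell receptor contig held 6 Cidea UMIs in the library labelled Healthy and 10 in MTZ-preventive. The adipocyte rule was met by 4 of 3066 and 29 of 1445 such cells.

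Cox8b, the form of cytochrome c oxidase subunit 8 used by heart, muscle and brown fat, gave 32, 190, 52 and 225 UMIs over whole libraries, or 1.11, 50.9, 3.57 and 6.98 CPM. AS was 45.8 (31.3 to 68.8) times the library labelled Healthy, 14.3 (10.5 to 19.8) times MTZ-treated and 7.29 (5.97 to 8.88) times MTZ-preventive. The first of these ratios was 19.7 over all deposited barcodes, below its interval. In adipocyte-marker cells the order was another one, with 186 CPM (118 to 278), 174 CPM (146 to 206), 192 CPM (134 to 266) and 42.1 CPM (36.3 to 48.6). The first 3 overlapped, with ratios of 0.940 (0.601 to 1.53) for AS to the library labelled Healthy and 1.10 (0.740 to 1.60) for MTZ-treated to AS, and MTZ-preventive lay below them at 0.241 (0.193 to 0.303) of AS. That last ratio was 0.278 without the top cell of each library. How AS compared with the library labelled Healthy depended on the cells kept, the ratio being 0.496 with looser quality limits, 0.565 over all deposited barcodes and 2.19 in cells with fewer than 3 markers of every other class, which left 3 cells of that library. A Cox8b UMI was present in 33.9, 17.9, 26.5 and 8.61% of the cells, and in 17.9, 11.8, 17.6 and 3.26% after thinning.

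The ubiquitous counterpart Cox8a stood at 2574, 2805, 2715 and 2082 CPM in adipocyte-marker cells. Since reads were taken at the 5′ end, a UMI counts a transcript whatever its length, and Cox8b was 6.73% (4.31 to 9.92), 5.85% (4.93 to 6.89), 6.61% (4.67 to 9.03) and 1.98% (1.71 to 2.28) of the transcripts of the pair. MTZ-preventive was again the library apart. In other cells that share was 0.0365%, 1.44%, 0.0697% and 0.144%.

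Cox7a1, the heart, muscle and brown fat form of subunit 7a, lay mostly outside adipocyte-marker cells, unlike Cox8b. It gave 37, 12, 38 and 36 UMIs over whole libraries, or 1.29, 3.21, 2.61 and 1.12 CPM. AS was the highest, as for Cox8b, but its interval (1.66 to 5.61) overlapped those of MTZ-treated (1.84 to 3.58) and the library labelled Healthy (0.905 to 1.77). Cox7a1 gave 3, 4, 2 and 8 UMIs in adipocyte-marker cells, too few for a ratio. There it was 3.70% (0.770 to 10.4), 0.635% (0.173 to 1.62), 1.34% (0.163 to 4.76) and 0.339% (0.146 to 0.666) of the Cox7a1 and Cox7a2 transcripts. Adipocyte-marker cells held 13.8% (8.26 to 21.2) of its UMIs over the 4 libraries, against 76.6% (72.6 to 80.2) for Cox8b.

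Elovl3, an elongase of very long chain fatty acids that cold induces in brown fat, gave 9, 19, 5 and 59 UMIs over whole libraries, or 0.313, 5.09, 0.343 and 1.83 CPM, and 0, 17, 0 and 34 in adipocyte-marker cells. Like Ucp1 it was not found in those of the library labelled Healthy or MTZ-treated. AS stood at 21.8 CPM (12.7 to 34.9) and MTZ-preventive at 7.65 CPM (5.30 to 10.7), a ratio of 0.351 (0.191 to 0.670). Of the 34 UMIs of MTZ-preventive 19 came from 1 cell, and without the top cell of each library the ratio was 0.203. Elovl3 made 42.5% (27 to 59.1) of the Elovl3 and Elovl6 transcripts in AS and 51.5% (38.9 to 64.0) in MTZ-preventive, which overlapped.

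Ppargc1a, a coactivator of mitochondrial biogenesis, gave 29, 9, 16 and 71 UMIs over whole libraries, or 1.01, 2.41, 1.10 and 2.20 CPM, and 2, 6, 0 and 32 in adipocyte-marker cells. These cells held 66.7% (29.9 to 92.5) of the UMIs in AS and 45.1% (33.2 to 57.3) in MTZ-preventive. In these cells AS stood at 7.69 CPM (2.82 to 16.7) and MTZ-preventive at 7.20 CPM (4.93 to 10.2), a ratio of 0.936 (0.386 to 2.74). The intervals overlapped, and a difference in either direction was not detectable at this depth.

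Dio2, the deiodinase that turns thyroxine into active thyroid hormone, gave 132, 9, 36 and 137 UMIs over whole libraries, or 4.59, 2.41, 2.47 and 4.25 CPM, and 0, 3, 0 and 15 in adipocyte-marker cells, which held 5.73% (3.43 to 8.91) of them. Fibroblast-marker cells gave 119, 3, 31 and 88 UMIs, or 22.2 (18.4 to 26.6), 3.71 (0.766 to 10.9), 6.37 (4.33 to 9.05) and 11 (8.85 to 13.6) CPM. The library labelled Healthy was the highest there, and its interval did not overlap the others. T-marker cells gave none in the 3 libraries with at least 20 of them.

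Prdm16, a transcriptional regulator of brown adipocyte fate, gave 341, 40, 201 and 417 UMIs over whole libraries, or 11.8, 10.7, 13.8 and 12.9 CPM, with overlapping intervals, and 1, 5, 1 and 55 in adipocyte-marker cells, which held 6.21% (4.79 to 7.89) of them. Endothelial-marker cells stood at 36.5, 28.7, 24.2 and 23.3 CPM and smooth muscle-marker cells at 30.9, 13.6, 21.8 and 26.8 CPM. Schwann-marker cells stood at 37.9, 42.0 and 24.7 CPM in the 3 libraries with at least 20 of them, from 22, 2 and 4 UMIs. B-marker cells gave 0.343, 0 and 1.07 CPM. In adipocyte-marker cells MTZ-preventive stood at 12.4 CPM (9.33 to 16.1) and AS at 6.41 CPM (2.08 to 15), a ratio of 1.93 (0.779 to 6.18) whose interval held 1.

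**Figure D2:**
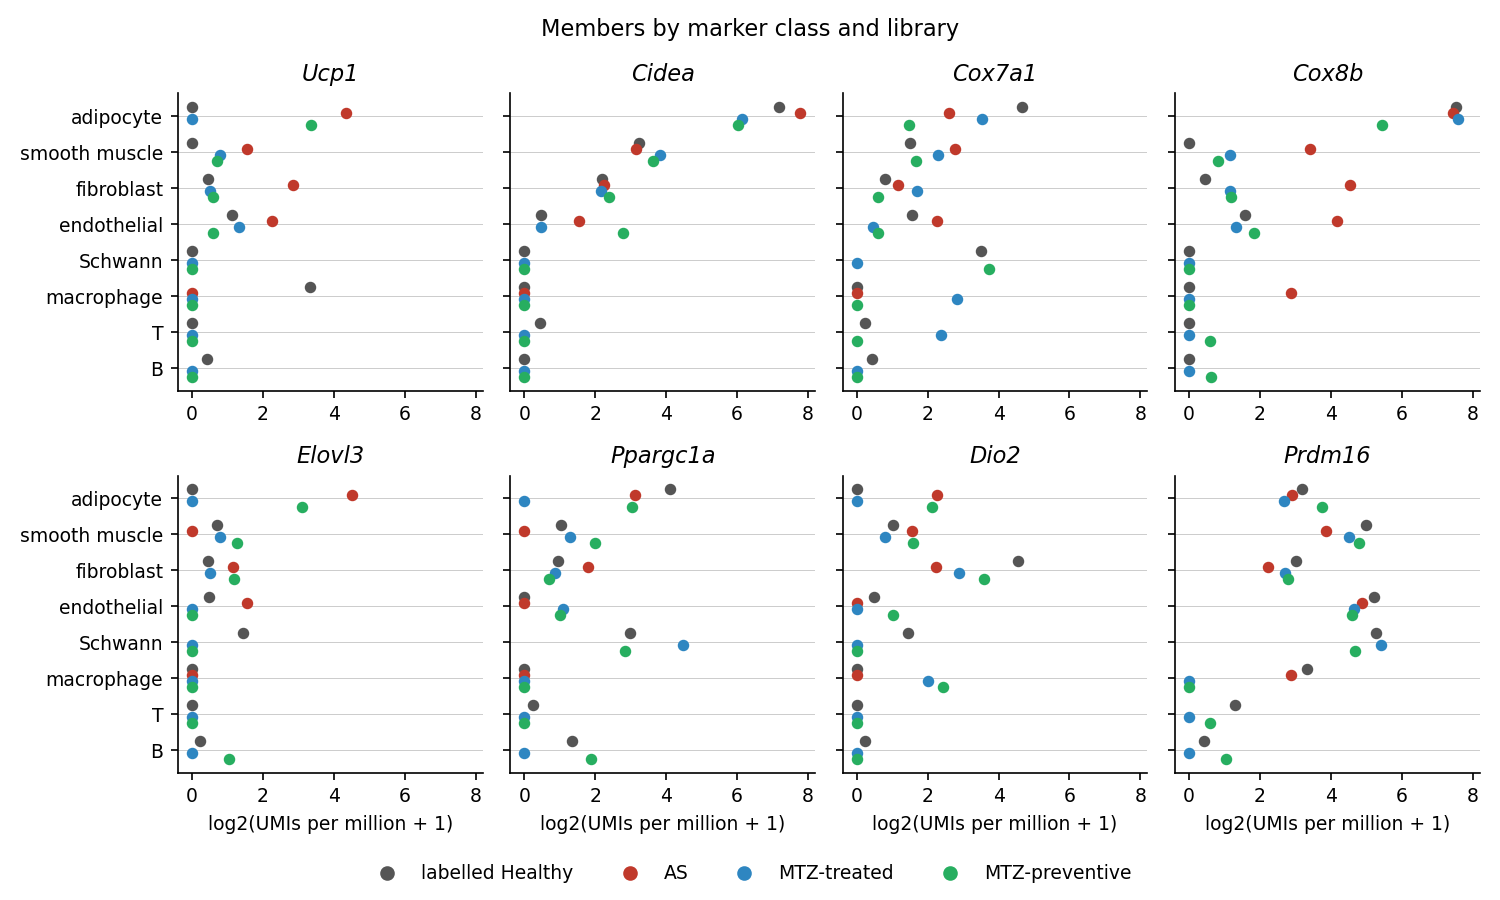
Level of each member as log2(UMIs per 1000000 + 1) in adipocyte-, smooth muscle-, fibroblast-, endothelial-, Schwann-, macrophage-, T- and B-marker cells of each library, for groups of at least 20 cells, without error bars. Other groups, among them neutrophil-marker cells, cells with neuronal transcripts and cells without a class, are not drawn. In AS Ucp1, Cidea, Cox8b and Elovl3 are highest in adipocyte-marker cells, at 19.2, 219, 174 and 21.8 CPM. For Ucp1 this rests on 1 cell with 9 Ucp1 UMIs. Without those UMIs it is at 7.69 CPM, below AS cells without a class at 12.4 CPM. Prdm16 is at 28.7 CPM in endothelial-marker cells of AS, and Dio2 is highest in fibroblast-marker cells of the library labelled Healthy.

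Between AS and the library labelled Healthy over whole libraries, 6 of 8 members were at least 2-fold higher in AS (Ucp1, Cidea, Cox7a1, Cox8b, Elovl3 and Ppargc1a), 0 were lower, and Dio2 and Prdm16 were within 2-fold. Of 15497 genes with at least 20 UMIs in the pair, 8.99% were higher by that measure and 18.8% lower. The ratios of Cox7a1, 2.50 (1.19 to 4.90), and Ppargc1a, 2.39 (0.996 to 5.19), were the least certain. Without the top cell of each library Cox7a1 was at 1.93, under 2-fold. Ppargc1a was then at 1.998, too near 2 to call, since the totals kept the other UMIs of those cells. In adipocyte-marker cells 2 members had enough UMIs, Cidea and Cox8b, and 0 passed 2-fold, where 16.8% of 4749 genes were higher and 9.5% lower.

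Between MTZ-treated and AS over whole libraries, 5 members were at least 2-fold lower in MTZ-treated (Ucp1, Cidea, Cox8b, Elovl3 and Ppargc1a) and 0 higher, where 6.12% of 13979 genes were lower and 10.6% higher. For Ppargc1a the ratio was 0.455 (0.189 to 1.17), an interval that held 1, and 0.549 without the top cell of each library. In adipocyte-marker cells Cidea was lower, at 0.316 (0.165 to 0.555), and Cox8b within 2-fold, where 11.9% of 5045 genes were lower and 11% higher. In MTZ-treated 10 of the 13 Cidea UMIs came from 1 cell, and the ratio without the top cells was 0.169. Scaling by TMM factors moved all log2 ratios of this pair of adipocyte-marker cells by -0.35, those of AS to the library labelled Healthy by 0.23 there and 0.12 over whole libraries, and others by less than 0.1.

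Between MTZ-preventive and AS over whole libraries, 5 members were at least 2-fold lower in MTZ-preventive (Ucp1, Cidea, Cox7a1, Cox8b and Elovl3) and 0 higher, where 4.77% of 15258 genes were lower and 10.7% higher. In adipocyte-marker cells 6 members had enough UMIs. Ucp1, Cidea, Cox8b and Elovl3 were at least 2-fold lower and Ppargc1a and Prdm16 within 2-fold, where 4.41% of 10341 genes were lower and 9.43% higher. The median log2 ratio was -1.28 over the 6 members, -0.40 over the 8 markers of the rule, all within 2-fold, and 0.05 over all genes counted. The 8 markers picked the cells in both libraries, so their ratio is tied to the rule.

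Whole libraries were also read against the UMIs of the 8 markers of the rule, which gave 2193, 9366, 2815 and 42562 UMIs. Car3 alone gave 1225, 2934, 1674 and 12922 of them. The mix of markers thus differed between libraries, and the values are not levels per adipocyte. Ucp1 stood at 4.10 (1.87 to 7.81), 3.31 (2.25 to 4.70), 3.91 (1.95 to 7.0) and 1.25 (0.933 to 1.63) UMIs per 1000 marker UMIs. In the library labelled Healthy and in MTZ-treated none of these Ucp1 UMIs came from adipocyte-marker cells. Within adipocyte-marker cells the values were 0 (0 to 2.22), 1.93 (1.08 to 3.18), 0 (0 to 1.66) and 1.20 (0.860 to 1.63), and the intervals overlapped. Cox8b stood at 14.6 (9.96 to 20.7), 20.3 (17.5 to 23.4), 18.5 (13.8 to 24.3) and 5.29 (4.62 to 6.03) over whole libraries, where the first 3 overlapped and MTZ-preventive lay below them. Cidea stood at 73.4 (62.2 to 86.2), 20.5 (17.7 to 23.7), 45.1 (37.5 to 53.9) and 10.2 (9.30 to 11.3), with no overlap between any of them, and at 10.8 (6.41 to 17.2), 22.0 (18.8 to 25.5), 5.84 (3.10 to 10.0) and 8.27 (7.33 to 9.30) within adipocyte-marker cells. Of the Cidea UMIs 11.2, 89.1, 10.2 and 64.9% came from adipocyte-marker cells, so the values over whole libraries rest on unlike mixes of cells. Elovl3 was at 4.10 (1.87 to 7.81), 2.03 (1.22 to 3.17), 1.78 (0.576 to 4.15) and 1.39 (1.06 to 1.79) over whole libraries. There MTZ-preventive lay below the library labelled Healthy and overlapped the others. As for Ucp1, no Elovl3 UMI of the library labelled Healthy or of MTZ-treated came from adipocyte-marker cells. Within adipocyte-marker cells Elovl3 was at 0, 2.18, 0 and 0.994, with overlapping intervals. Prdm16, mostly outside adipocyte-marker cells, was at 155, 4.27, 71.4 and 9.80 over whole libraries, and Dio2 at 60.2, 0.961, 12.8 and 3.22.

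**Figure D3:**
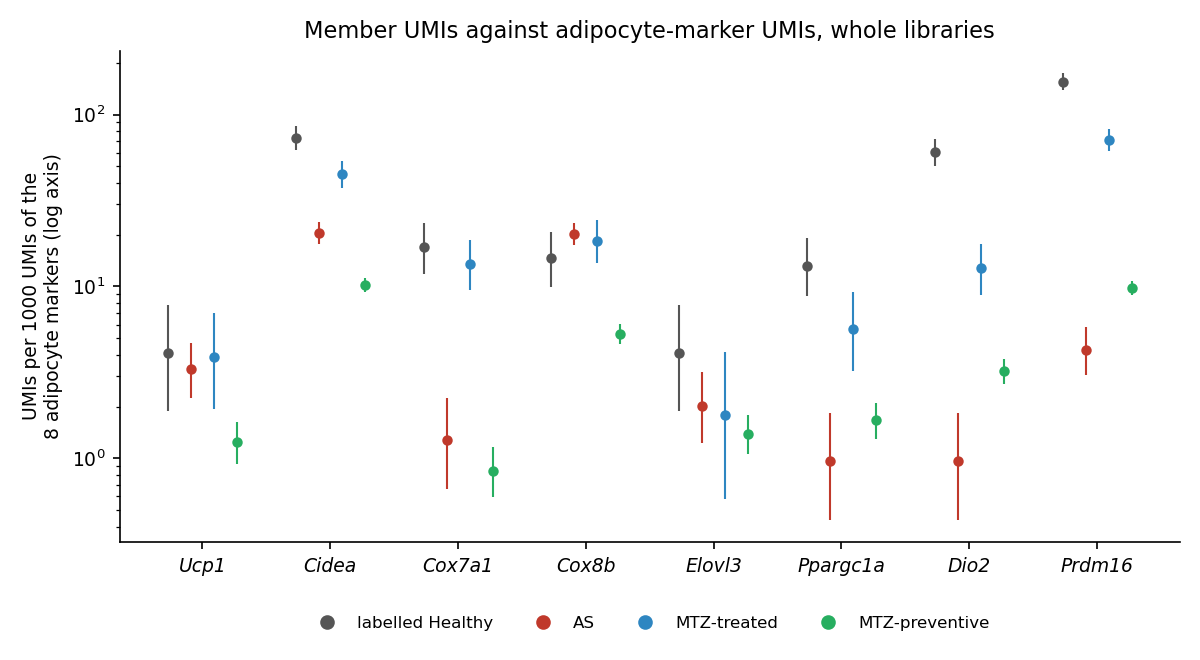
Member UMIs per 1000 UMIs of the 8 adipocyte markers over whole libraries (log axis), as points with exact 95% intervals of counting error. Ucp1 lies at 4.10, 3.31, 3.91 and 1.25 in the libraries labelled Healthy, AS, MTZ-treated and MTZ-preventive, with no UMI from adipocyte-marker cells in Healthy and MTZ-treated, and Prdm16 spans 4.27 to 155.

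Cox8b, Cidea and Ucp1 were also read by the number of adipocyte markers in a cell. In AS Cox8b stood at 6.61 CPM in 1079 cells without a marker, 69.1 (35.7 to 121) in 138 cells with 3, just outside the rule, 65.3 (33.7 to 114) in 129 cells with 4, just inside it, and 261 (213 to 317) in 137 cells with 6 to 8. In MTZ-preventive the same steps gave 0.390, 11.9, 8.76 and 51.3 (42.9 to 60.8) CPM. Just outside and just inside the rule Cidea was at 28.8 and 49.0 CPM in AS and at 23.7 and 33.9 CPM in MTZ-preventive, so neither gene changed sharply at the limit. Among cells with 6 to 8 markers AS lay above MTZ-preventive without overlap for Cox8b and for Cidea, 381 against 76.7 CPM, and with overlap for Ucp1, 30.7 (15.9 to 53.7) against 13.1 (9.08 to 18.3) CPM. Prdm16 did not rise with marker number, at 14.7 CPM without markers and 7.68 with 6 to 8 in AS and 12.7 and 11.6 in MTZ-preventive. The Cidea level of AS includes the cell with 97 UMIs. Depth moved with marker number, at a median of 1300 and 2042 UMIs per cell with 4 and with 6 to 8 markers in AS and 1820 and 2581 in MTZ-preventive.

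**Figure D4:**
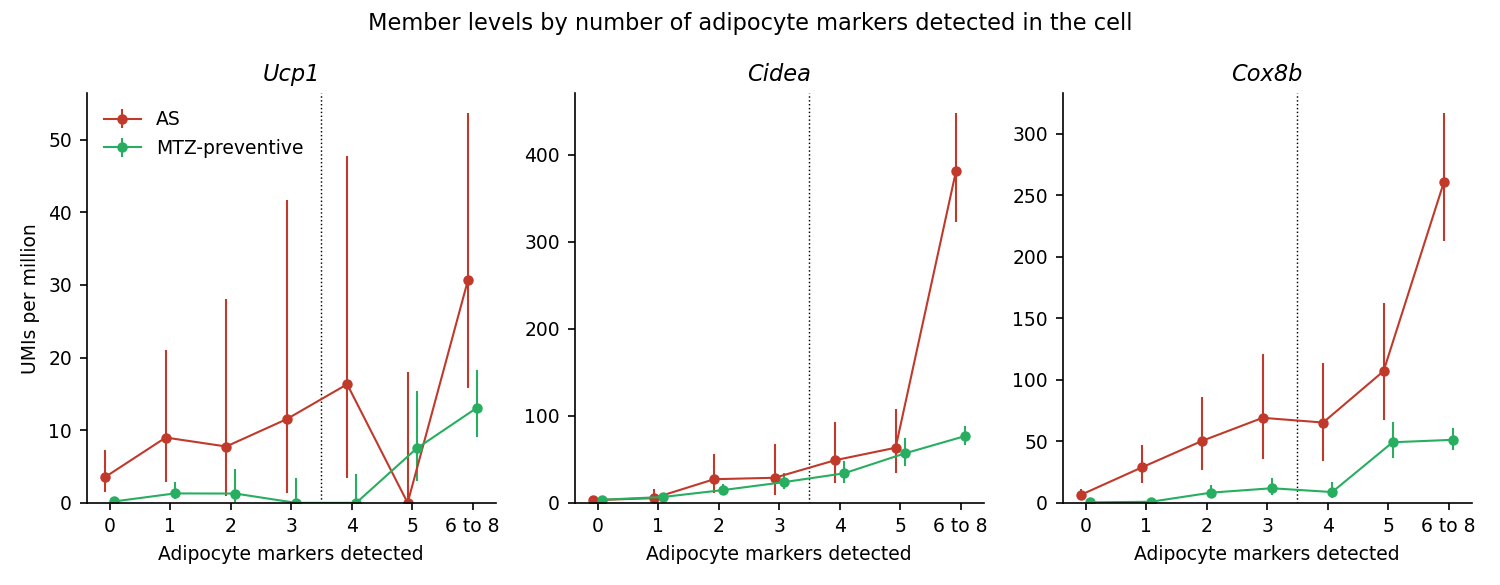
UMIs per 1000000 of Ucp1, Cidea and Cox8b against the number of adipocyte markers detected in a cell, for AS and MTZ-preventive, with exact 95% Poisson intervals of counting error; the dotted line is the limit of the rule. Cox8b stands at 6.61 CPM without markers and 261 CPM with 6 to 8 in AS, and at 0.390 and 51.3 CPM in MTZ-preventive.

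Few cells held several members. At least 1 was found in 44.6% (31.3 to 58.5), 29.9% (25.4 to 34.7), 29.4% (19.0 to 41.7) and 23.7% (21.4 to 26.0) of adipocyte-marker cells, against 4.65%, 6.95%, 5.54% and 5.37% of other cells. At least 4 were found in 1 cell of AS and 3 of MTZ-preventive, all with 8 markers. The AS cell had 29575 UMIs, of which 97 were of Cidea, 26 of Cox8b, 4 of Elovl3, 3 of Cox7a1, 2 of Ppargc1a and 0 of Ucp1. The deepest MTZ-preventive cell had 17387 UMIs, of which 14 were of Ucp1, 13 of Cox8b and 9 of Cidea. Cidea and Cox8b were found together in 21 AS cells and 36 MTZ-preventive cells, where the product of their shares would give 9.31 and 13.7. Cells with a Cidea UMI were deeper, with a median of 3919 UMIs against 2086 in MTZ-preventive, and the part of depth in these counts was not tested.

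Further genes of the program were read in adipocyte-marker cells. Over all 32245 gene symbols, 17430 had a UMI in these cells. Of 19 other brown fat genes 17 had a UMI. Kcnk3, a potassium channel, stood at 121, 106, 80.0 and 60.8 CPM, Nrg4, a growth factor secreted by brown fat, at 88.7, 55.1, 64.0 and 40.5 CPM, and Ebf2, a transcription factor of brown precursors, at 24.2, 14.1, 26.7 and 17.8 CPM. Zic1, a marker of classical brown fat, had no UMI in these cells, and Lhx8, another, had 0, 0, 0 and 9. Of 11 of these genes counted between MTZ-preventive and AS, 3 were at least 2-fold higher and 2 lower, with a median log2 ratio of -0.37. Over all 10341 genes counted in this pair 9.43% were higher and 4.41% lower, shares that apply to each list below.

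All 13 genes of adrenergic signalling were detected. Gnas, the stimulatory G protein subunit, stood at 807, 594, 1083 and 708 CPM, Pde4b, a cAMP phosphodiesterase, at 72.6, 204, 245 and 132 CPM, and Prkar1a, a regulatory subunit of protein kinase A, at 88.7, 171, 213 and 115 CPM. Adrb3, the beta receptor of adipocytes, stood at 129, 43.6, 58.7 and 79.5 CPM, and MTZ-preventive was at 1.82 (1.28 to 2.67) times AS, the opposite direction to Ucp1, Cidea, Cox8b and Elovl3. Of 13 genes counted, 0 were at least 2-fold higher in MTZ-preventive than in AS and 1 lower, with a median log2 ratio of -0.32. Over all genes counted 9.43% were higher and 4.41% lower.

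All 15 genes of fatty acid oxidation were detected. Pdk4, a kinase that restrains glucose oxidation, stood at 613, 564, 245 and 1002 CPM, Etfb, an electron carrier subunit, at 742, 671, 917 and 550.0 CPM, and Acadl, an acyl-CoA dehydrogenase, at 403, 307, 235 and 185 CPM. Of 14 counted, 0 were at least 2-fold higher in MTZ-preventive than in AS and 1 lower, where 9.43% of all genes were higher and 4.41% lower. The creatine cycle, another heat-making route, had 5 of 6 genes detected, with Ckb, a creatine kinase, at 105, 53.9, 117 and 55.4 CPM, Alpl, a phosphatase, at 8.07, 51.3, 0 and 24.5 CPM, and Slc6a8, the creatine transporter, at 8.07, 7.69, 16.0 and 15.1 CPM. Of 4 counted, 0 were higher and 1 lower.

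All 10 white fat genes were detected. Nnmt, a nicotinamide methyltransferase, stood at 202, 695, 256 and 509 CPM, Sncg, a synuclein, at 24.2, 136, 240.0 and 167 CPM, and Wfdc21 at 16.1, 181, 123 and 70.2 CPM, while Lep, the hormone leptin, gave 2, 3, 0 and 18 UMIs. Of 10 counted, 2 were at least 2-fold higher in MTZ-preventive than in AS and 2 lower, where 9.43% of all genes were higher and 4.41% lower. Of 8 beige fat genes 7 were detected. Slc36a2, an amino acid transporter, stood at 194, 71.8, 58.7 and 86.0 CPM, P2rx5, a purine receptor, at 0, 3.85, 5.33 and 4.28 CPM, and Klhl13 at 0, 2.56, 5.33 and 3.15 CPM. Of 2 counted, 0 were higher and 0 lower, and of the 16 adipocyte genes outside the rule 1 was higher and 2 lower.

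Of 16 family counterparts of the members 15 were detected, Dio1 being the exception. Ucp2, a broadly expressed relative of Ucp1, gave 11, 92, 3 and 335 UMIs, and Ucp1 was 14.0% (8.06 to 22.1) of the pair in AS and 10.9% (7.94 to 14.5) in MTZ-preventive, against 1.55% and 0.229% in other cells. Ucp3 gave 1, 0, 0 and 8 UMIs, Cideb 0, 0, 0 and 1, Dio3 0, 0, 0 and 6 and Mecom, a homolog of Prdm16, 0, 6, 4 and 33. Cox7a2 stood at 629, 803, 784 and 530.2 CPM and Cox7a2l at 105, 69.3, 107 and 125 CPM. Among the elongases Elovl1 stood at 16.1, 11.5, 21.3 and 27.7 CPM, Elovl5 at 56.5, 46.2, 21.3 and 42.8 CPM and Elovl6 at 153, 29.5, 21.3 and 7.20 CPM, and Elovl4 and Elovl7 gave 0, 0, 2 and 4 and 0, 0, 2 and 3 UMIs. The relatives of Ppargc1a gave 3, 8, 5 and 56 UMIs for Ppargc1b and 2, 14, 1 and 87 for Pprc1. Of 10 counterparts counted, 1 was at least 2-fold higher in MTZ-preventive than in AS and 1 lower, where 9.43% of all genes were higher and 4.41% lower. The first was Elovl1, at a ratio of 2.40 (1.22 to 5.37), and the second Elovl6, at 0.244 (0.139 to 0.437).

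Genes with a pattern like that of Ucp1 were ranked by Pearson r of log2(CPM + 1) among 14128 genes over 36 groups of cells. Each group was the cells of 1 marker class, or those without a class, in 1 library. The first 5 were Gm47162 (r = 0.736), Serpina3i (r = 0.727), Wfdc12 (r = 0.696), Fga (r = 0.691) and Serpina3b (r = 0.687). All 5, like Ucp1, had no UMI in adipocyte-marker cells of the library labelled Healthy or of MTZ-treated. These groups were themselves part of the ranking, so the shared zeros follow in part from how the genes were picked. Among the members Elovl3 ranked 16 (0.594), Cox8b 92 (0.486) and Cidea 451 (0.388). Dio2 ranked 1633 (0.274), Prdm16 1945 (0.256), Ppargc1a 3465 (0.182) and Cox7a1 5149 (0.114). The markers of the rule ranked from 216 (0.436) for Cidec to 781 (0.342) for Adig, with Adipoq at 413 (0.394). The groups share libraries and depth and the Ucp1 counts are low, so the ranks are descriptions.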

How the data were processed

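Aortas were measured by droplet single-cell RNA-seq (10x 5′ kit), with 1 library a group. The authors deposited UMI counts per gene and barcode made with Cell Ranger, version 5.0.0 per the file headers, on mm10; these counts were used as deposited. Cells were kept with more than 200 genes, more than 1000 UMIs, under 10% mitochondrial and under 5% red blood cell UMIs and log10 of genes divided by log10 of UMIs above 0.7, after which simulated-doublet scores removed 1218, 38, 416 and 2129 cells. UMIs were summed over cells and given per 1000000 UMIs. Levels have exact Poisson intervals, ratios exact conditional binomial intervals and shares Clopper-Pearson intervals. Genes with at least 20 UMIs in a pair of libraries were counted, and at least 2-fold was the measure of size, since no test is possible with 1 library a group. Classes of cells had at least 3 of 8 markers. Scripts ran in Python 3.11.15 with scipy 1.17.1, and TMM factors came from edgeR 4.0.16. The counting was tested on simulated data. Named were all members, markers of the rule and family counterparts, the 3 highest genes of each other list with Adrb3, Lep, Zic1 and Lhx8, Apoe, and the 5 genes most like Ucp1. Members and lists were chosen with earlier results of these data known. Receptor contig files served only to mark barcodes.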

Additional observations from a re-analysis of the deposited data

Results flagged for a closer look

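Barcodes outside the quality limits, which the reported levels leave out, held members above the interval of the library labelled Healthy measured the same way. Ucp1 stood at 10.4 (7.39 to 14.2) CPM in those of AS, against 0.692 (0.225 to 1.61) in the library labelled Healthy. Cidea stood at 18.7 (14.5 to 23.6) CPM in AS and 18.6 (15.6 to 21.9) in MTZ-preventive, against 5.53 (3.95 to 7.54). Cox8b stood at 46.4 (39.8 to 53.8) CPM in AS and 15.3 (12.6 to 18.4) in MTZ-preventive, against 9.96 (7.79 to 12.5). Prdm16 stood at 16.3 (12.4 to 20.9) CPM in AS and 16.4 (13.9 to 19.2) in MTZ-treated, against 9.55 (7.43 to 12.1). Such barcodes numbered 9518, 4709, 13726 and 7647 of the 21857, 6908, 20938 and 23963 deposited, with a median of 700, 723, 661 and 807 UMIs each. Among the cells kept, the median mitochondrial share was 5.53, 6.19, 4.02 and 5.72% in adipocyte-marker cells and 2.40, 2.75, 1.89 and 3.12% in other cells.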

How the results depend on the processing

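Of 276 recomputed member ratios 244 kept their direction, and of the 32 that did not, 0 belonged to a member past 2-fold in the reported comparison. The shares of adipocyte-marker cells in the libraries labelled Healthy, AS, MTZ-treated and MTZ-preventive moved with the cells kept. They were 9.27, 0.311 and 6.81% in the last 3 with looser limits (fewer UMIs and more mitochondrial RNA allowed), 9.58, 0.439 and 8.37% there over all barcodes, 24.5% in AS and 13.9% in MTZ-preventive with 3 markers, 0.351, 12.1 and 6.37% in Healthy, AS and MTZ-preventive with 5, 0.342, 14.1, 0.633 and 5.15% after thinning and 0.0270, 7.17, 0.177 and 3.80% with fewer than 3 markers of every other class. In these last cells 2 members passed 2-fold between AS and the library labelled Healthy and 0 between MTZ-treated and AS, the Ucp1 ratio of MTZ-preventive to AS was 0.238, and 2.04% of MTZ-preventive cells held Ucp1. With looser limits 2 members passed 2-fold in adipocyte-marker cells between AS and the library labelled Healthy. The share over all genes was not computed at either setting, so these counts have no background. Their directions were not alike, since Cox8b was lower in AS with looser limits but higher in AS in cells with fewer than 3 markers of every other class. Over whole libraries with looser limits AS against the library labelled Healthy was 1.25 for Dio2, 1.66 for Prdm16 and 22.9 for Cox8b. With the mean of cell CPM Ucp1 in MTZ-preventive was 0.111 of AS over whole libraries. The causes were not tested, except that stricter rules leave fewer cells. Leaving out the top cell's UMIs of the gene, with totals unchanged, was a step chosen after the data were seen. It ended the 2-fold difference of MTZ-preventive from AS for Cidea on both scales and for Ucp1 in adipocyte-marker cells. In these cells the 2-fold difference also ended at 0.577 for Ucp1 with at least 5 markers, at 0.501 for Ucp1 with mitochondrial, hemoglobin and ribosomal protein genes left out of the totals, and at 0.516 for Cidea with the mean of cell CPM. Over whole libraries AS was under 2-fold of the library labelled Healthy over all barcodes for Cox7a1 (1.78) and Ppargc1a (1.92). That ratio was 19.7 for Cox8b and 4.70 for Cidea over all barcodes, both below the intervals of the reported ratios. No Ucp1 ratio with the library labelled Healthy or of MTZ-treated to AS in adipocyte-marker cells could be given, because 1 side had 0 UMIs. Low UMI counts and 1 library a group limit all values. No paired analysis was possible because each group has 1 library.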

Other observations

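Cidea was also found in cells with neuronal transcripts, a group formed after its values were seen. Adipocyte-marker cells were left out of this group. Cells outside them with at least 4 of the 8 genes Tubb3, Prph, Uchl1, Stmn3, Gap43, Rtn1, Th and Dbh numbered 257, 132 and 278 in the library labelled Healthy, MTZ-treated and MTZ-preventive, and 0 in AS. They held 91, 55 and 13 Cidea UMIs, or 65.4 (52.6 to 80.3), 124 (93.1 to 161) and 23.6 (12.6 to 40.4) CPM, in 25, 25 and 12 cells, with at most 41, 17 and 2 UMIs in 1 cell. The 8 adipocyte markers together gave 3, 1 and 320 UMIs in them, counts held down by leaving out the adipocyte-marker cells. Th, the enzyme that starts catecholamine synthesis, stood at 1459, 1734 and 1295 CPM in these cells.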
